A study of Ovis aries with 8 samples.

Results

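The 4 sheep fetal carotid artery samples titled as sea-level controls were described on their own, out of 8 samples in the series, to show which named genes gave bright, middling and dim signals in a normoxic near-term artery and how closely the 4 arrays agreed. All 4 fetuses were at 140 days of gestation. Their ewes were normoxic and ate alfalfa pellets, without restriction, at the supplier's ranch at 300 m, although the sample titles say sea level. The 4 fetuses from ewes kept at high altitude are not analysed here. The labels separate the controls by a number only and do not say whether each came from its own ewe, and they give no breed or sex, so the spread over the arrays may include technical differences.

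The carotid artery is an elastic artery that carries blood to the head. Its wall holds an inner sheet of endothelium, a media of smooth muscle cells between layers of matrix, and an outer adventitia of fibroblasts, nerves and small vessels. Smooth muscle cells contract when calmodulin activates myosin light chain kinase, which phosphorylates the regulatory light chain of myosin. Before birth the wall is still growing and laying down matrix, under growth factors such as the insulin-like growth factors and their binding proteins.

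RNA of each artery was hybridised to 1 one-colour array of sheep probes. A level is the log2 of a probe's processed intensity minus the log2 of that array's 75th percentile, so that 0 is a probe as bright as the 75th percentile, and every mean and SD is over the 4 arrays (n = 4). Of 14955 probes with a value on every array, 7804 (52.2%) were well above background on all 4 and were kept. A gene name could be given to 586 of the kept probes, which stand for 375 genes, or 44.7% of the 838 named genes on the array. Each count of kept genes in a list below is to be read beside that share. By their best probe, 116 more named genes were well above background on 3 arrays, 184 on 2, 100 on 1 and 63 on none. The kept probe with the highest mean stands for its gene. How bright a probe is depends on the probe as well as on the transcript, so an order of brightness is an order of signals and not of transcript amounts: the 195 genes with at least 2 kept probes had a median range of 0.34 between their own probes, and 21 had a range over 2. In whole artery, fewer cells of a type and less RNA per cell cannot be told apart.

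Control 1 stood apart from the other arrays. Its 75th percentile was an intensity of 124, against 598 for control 2, 1366 for control 3 and 398 for control 4. Across the 7804 kept probes, which share the array design, control 1 correlated with the others at Pearson's r of 0.882, 0.893 and 0.906, while the other pairs lay at 0.936, 0.950 and 0.969. Among the 4 controls, controls 1 and 2 were each on a separate slide and controls 3 and 4 shared the third slide. The scan dates divided the controls in the same way. Whether these slides also held other samples was not looked up. The pair on 1 slide was not the closest: controls 3 and 4 correlated at 0.936 and controls 2 and 4, on different slides, at 0.969. The share of probes well above background was 71.4% on control 1, 61.6% on control 2, 88.4% on control 3 and 59.5% on control 4. No spot was saturated. SDs without control 1 are given for the genes and counts where it was far from the others.

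The brightest named genes were ribosomal protein, cytoskeletal and smooth muscle genes. Of the 15 brightest, 8 encode ribosomal proteins, and the others are MYL6 and CNN1 of the contractile apparatus, ACTG1 and VIM of the cytoskeleton, the secreted lectin LGALS1, the ubiquitin precursor UBB and the peptidyl-prolyl isomerase PPIA. Each was at 6.90 or higher on every array. RPS12, a protein of the small ribosomal subunit, read 9.32 on control 1, 9.02 on control 2, 8.25 on control 3 and 9.36 on control 4, a mean of 8.99 ± 0.51 (SD, n = 4). Its lowest value was on control 3, as for 12 of the 15 genes, and 9 of the 15 were highest on control 4. Over all kept probes, control 3 was lowest for 24.4% and control 4 highest for 28.2%. The kept probes were also split by mean level into 4 classes of equal size. In the brightest class the median deviation from the probe's own mean was 0.31 on control 4 and -0.18 on control 3. It was -0.24 on control 1 and 0.13 on control 2. The second of the named genes, RPS20, also of the small subunit, had a mean of 8.63 ± 0.35 (SD, n = 4). RPL34 and RPL6 of the large subunit followed at 8.29 ± 0.55 and 8.12 ± 0.31, and the second RPL34 probe had a mean of 4.66. The small-subunit genes RPS15A, RPS6, RPS25 and RPS26 lay at 7.84, 7.69, 7.66 and 7.66. Named probes made up 35 of the 100 brightest kept probes, and RPS12 was seventh of all; the brightest unnamed probes, A_70_P068551 and A_70_P001476, had means of 9.82 and 9.64. All 15 stayed among the 15 brightest when any 1 array was left out, under each scaling and with another background correction.

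**Figure D1:**
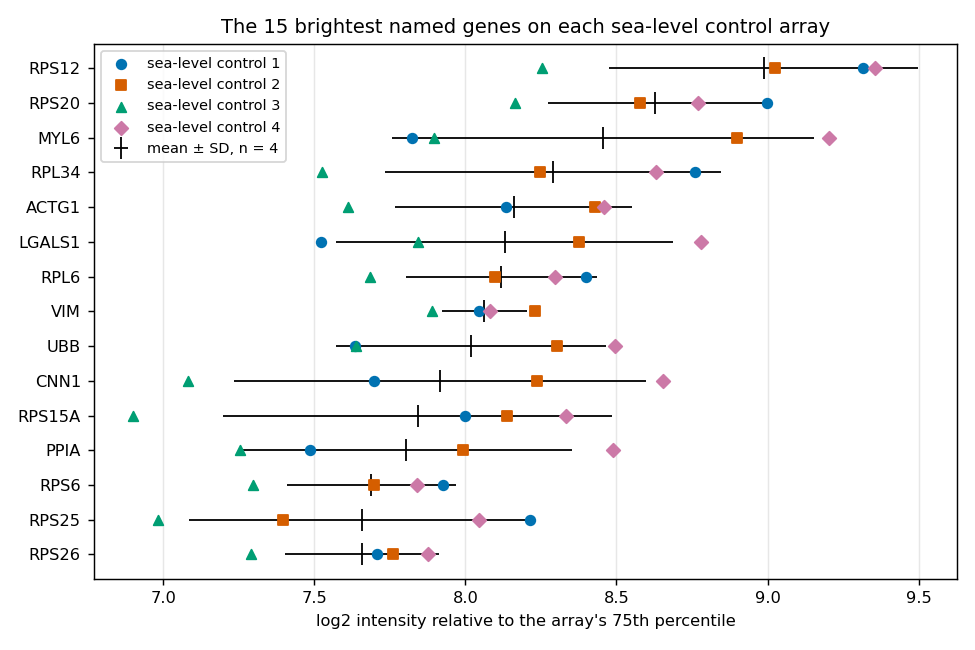
Level of the 15 brightest named genes on each of the 4 sea-level control arrays (coloured points; log2 intensity relative to the array's 75th percentile), with the mean and SD as a black tick and bar (n = 4). Control 3 gives the lowest value for 12 of the 15 genes, and for 24.4% of all kept probes. VIM has the narrowest bar, with an SD of 0.14.

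The smooth muscle markers were bright,. MYL6, the essential light chain of smooth and non-muscle myosin, read 7.82, 8.90, 7.90 and 9.20 on controls 1 to 4, a mean of 8.46 ± 0.70 (SD, n = 4). CNN1, the actin-binding calponin of differentiated smooth muscle, read 7.70, 8.24, 7.08 and 8.65, a mean of 7.92 ± 0.68. Both were in the top 1% of kept probes and both were highest on control 4. MYLK, the myosin light chain kinase, read 5.51, 5.40 and 5.57 on controls 1, 2 and 3 and 7.51 on control 4. The SD was 1.01 (n = 4): the first 3 arrays lay close together with control 4 far above them. Its second probe gave the same picture, at 4.31, 4.67, 4.83 and 6.55. These 3 were the only members of a list of 23 contractile genes with a named probe; the other 20, ACTA2 and MYH11 among them, are not analysed here.

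Other cytoskeletal genes were bright too, and all 5 measured ones were kept. ACTG1, the cytoplasmic gamma actin, had a mean of 8.16 ± 0.39 (SD, n = 4). VIM, the intermediate filament protein vimentin of mesenchymal cells, read 8.05, 8.23, 7.89 and 8.08 and was among the least variable genes as well as the brightest. A second VIM probe had a mean of 7.67 and an SD of 0.55, so the narrow spread belongs to 1 probe. ACTB, the cytoplasmic beta actin, was at 5.05 ± 0.55 by its brightest probe, which read 4.65, 5.54, 4.50 and 5.50 on controls 1 to 4. Its second kept probe ran differently, at 4.09, 3.91, 5.13 and 2.63, with a mean of 3.94 and an SD of 1.03.

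Of the genes on a list of ribosomal proteins and translation factors, 20 were on the array and 19 were kept. Their median level was 7.44 and their median SD 0.31, against 0.16 and 0.55 for all kept named genes. By the brightest probe of each gene, the exceptions in brightness on the list were EEF1D, a subunit of the elongation factor exchange complex, at 2.73, and RPL32, whose single kept probe was at -1.66. EEF1A1 was at 6.92 by its brightest probe, but the dimmest of its 5 kept probes had means of 0.83 and 0.06. The list does not hold every translation gene: EIF4A2 and EIF3A, outside it, were at 1.92 and 0.54 by their brightest probes. Their second probes had means of -0.35 and -0.94. Of the 19 listed genes kept, 14 were lowest on control 3, which was lowest for 24.4% of all kept probes. Probes of near-identical ribosomal pseudogenes and paralogs may share signal with these genes.

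Genes of energy supply ran from bright to dim. ATP5MC2 and ATP5MC1, which encode the membrane c subunit of ATP synthase, were at 6.17 ± 0.38 and 5.16 ± 0.55 (SD, n = 4), while 2 other ATP5MC1 probes were at -2.11 and -2.14. SDHD, an anchor subunit of succinate dehydrogenase, read 0.45 on control 1 and 2.10, 2.39 and 1.92 on the others, and its SD went from 0.86 to 0.24 without control 1. That gap belongs to 1 probe: the other SDHD probes, at means of -0.20 and -0.78, were not lowest on control 1. Of 13 glycolysis and glucose uptake genes, 9 were kept, with a median of 1.74. ALDOA, the aldolase of glycolysis, was at 5.22 ± 0.39 and GAPDH at 4.74 ± 0.72. PYGL and PYGM, the liver and muscle forms of glycogen phosphorylase, were at 2.25 ± 0.33 and 0.31 ± 0.14, and the second PYGL probe had a mean of -2.69. The glucose transporter gene SLC2A1, named after its values were seen, was at -1.52, and SLC2A5, HK1, PFKM and PCK1 were not kept.

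Of the genes often used as references, some were set apart by control 1. GAPDH read 3.70 on control 1 and 5.29, 4.83 and 5.14 on the other arrays. B2M, the light chain of class I antigen-presenting molecules, read 4.18 on control 1 and 5.54, 5.20 and 5.26 on the others. In both genes control 1 was below the range of the other 3 arrays, and without it the SD went from 0.72 to 0.23 for GAPDH and from 0.59 to 0.18 for B2M. Another GAPDH probe was lowest on control 4, at 2.63. By their brightest probes, the SDs of PPIA, ACTB, B2M and GAPDH ran from 0.55 to 0.72, beside a median of 0.46 over all kept probes. Other kept probes of ACTB and GAPDH had SDs up to 1.03 and 1.14. Without control 1 the SDs of the brightest PPIA and ACTB probes were 0.62 and 0.59, and the median over all the same kept probes was 0.35.

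Matrix genes spread widely, with a list median of 0.47. TIMP1, an inhibitor of matrix metalloproteinases, was at 6.08 ± 0.47, and the small leucine-rich proteoglycans DCN (decorin) and BGN (biglycan) were at 5.32 ± 0.71 and 5.26 ± 0.62 (SD, n = 4). BGN read 4.33 on control 1 and 5.64, 5.54 and 5.53 on the others, so that its SD was 0.06 without control 1. FBLN1, a glycoprotein of elastic fibres and basement membranes, read 2.21 on control 3 and -0.17, 0.28 and -0.46 on controls 1, 2 and 4. COL3A1, the chain of fibrillar collagen III, was looked at after its values were seen: its brightest probe read 2.66 on control 3 and -0.21, 0.10 and -0.72 on controls 1, 2 and 4. The other kept COL3A1 probes were also highest on control 3 but were dim, with means of -2.18 and -2.15. The metalloproteinases MMP2 and MMP14 were dim, at -1.13 and -1.83. Of the 11 matrix genes measured, 7 were kept, and COL1A1, COL6A1, MMP1 and SPP1 were not well above background on every array.

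The brightest growth factor genes, IGFBP4 and IGF2, belong to the insulin-like growth factor system, which drives fetal growth. Of 45 genes measured, 30 were kept, with a median of -0.67, and 10 of the 30 were above the 75th percentile. IGFBP4, a binding protein that restrains these factors, had a mean of 6.20 ± 0.39 (SD, n = 4). IGF2, the main fetal growth factor of the family, read 7.00 on control 1 and 5.50, 5.31 and 5.01 on controls 2, 3 and 4. Its second probe also had its highest value, 6.95, on control 1, with 5.09, 5.01 and 4.18 on the others. Without control 1 the SD of IGF2 went from 0.89 to 0.25. Other members of the system ran from bright to dim. IGFBP6, IGFBP2 and IGFBP3 were at 4.95, 4.65 and 1.81. IGF1R, IGF1, IGFBP5 and the insulin receptor INSR were at 0.00, -0.54, -0.64 and -2.89 by their brightest probes. The second IGF1R probe had a mean of -2.45. IGF2R was not kept, and IGFBP1 was above background on no array. INHBA, the activin beta A subunit, read 6.77 on control 4 and 4.99, 5.60 and 4.80 on controls 1, 2 and 3. TGFBR2, the type II receptor for transforming growth factor beta, was dim and even, at -0.87 ± 0.15. Control 1 gave the highest value for 16 of the 30 genes, and for 30.9% of all kept probes.

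**Figure D2:**
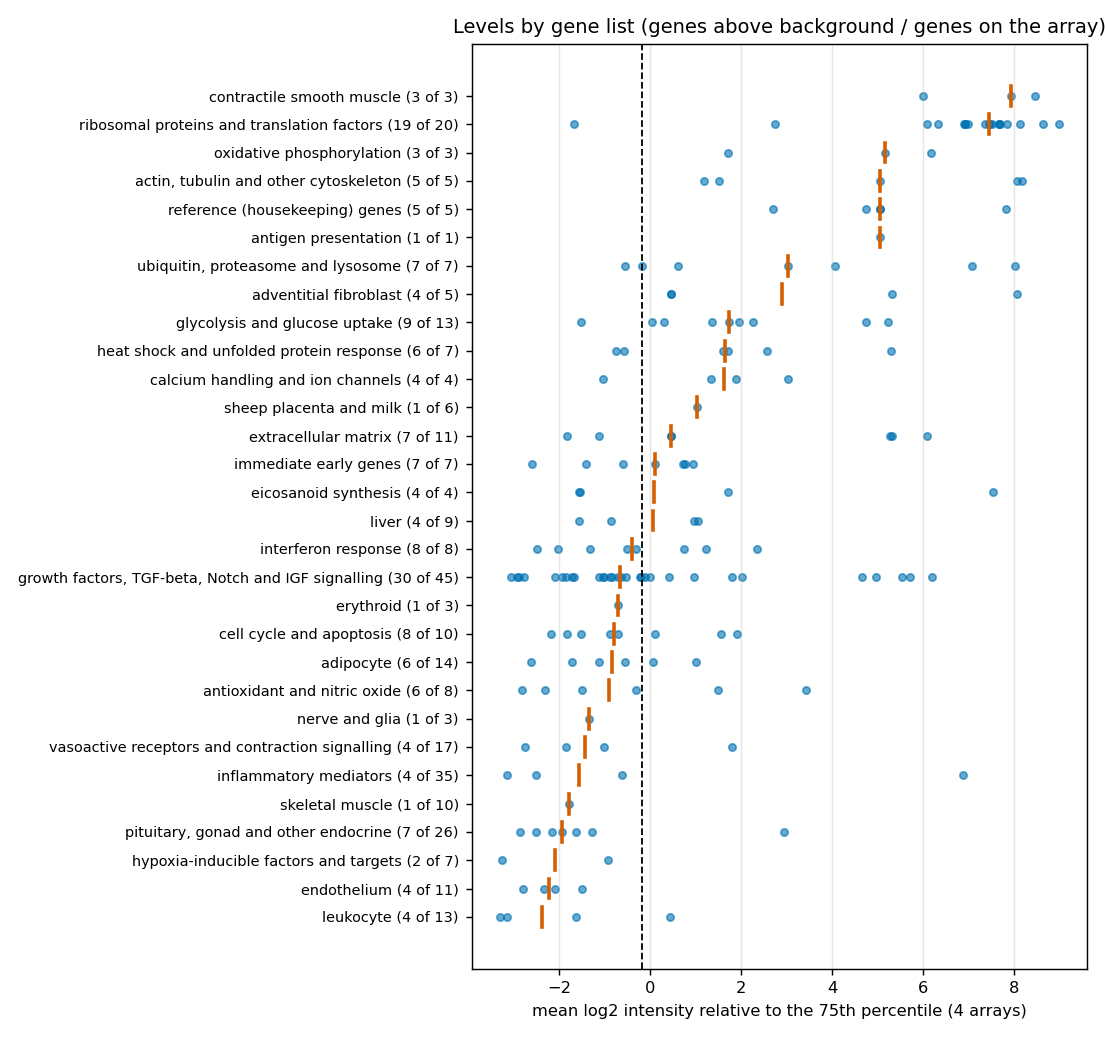
Mean level of every kept gene (blue points; log2 relative to the 75th percentile, mean of 4 arrays) in each gene list, with the list's median as an orange tick and the median of all kept probes, -0.18, as a dashed line; the counts after each name are genes kept and genes on the array. Contractile and ribosomal genes lie farthest right, and leukocyte and endothelial genes farthest left.

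Vasoactive receptor and signalling genes were mostly dim. Of 17 measured, 4 were kept, beside 44.7% of all named genes, with a median of -1.43. Of the 17, 1, the adrenergic receptor ADRB1, was above background on no array. AGTR1, the angiotensin receptor that drives constriction, was at 1.80 ± 1.02 (SD, n = 4), reading 0.50 on control 1, 1.63 on control 2, 2.17 on control 3 and 2.91 on control 4. EDNRA, the endothelin receptor of smooth muscle, read -0.25 and -0.38 on controls 1 and 3 and -1.84 and -1.63 on controls 2 and 4; its second probe did not share that split, at -1.69, -0.92, -0.16 and -1.40 on controls 1 to 4. GUCY1B1, a subunit of the nitric oxide receptor guanylate cyclase, was at -1.84 ± 0.87. All 4 genes for calcium handling and ion transport were kept. Among them, the sodium pump subunit ATP1B1 was at 3.03 ± 0.42, CALM2, a calmodulin gene, was at 1.90 ± 0.65, and TRPC4AP, a protein that binds a calcium channel, was at -1.04 ± 0.22.

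Endothelial markers were near the dim end. Of 11 measured, 4 were kept, beside 44.7% of all named genes, with a median of -2.22. NOS3, the endothelial nitric oxide synthase, read -0.69, -1.54, -1.22 and -2.51 on controls 1 to 4. KDR, the main receptor for vascular endothelial growth factor, read -1.44 and -1.22 on controls 1 and 3 and -3.01 and -3.68 on controls 2 and 4. The adhesion molecules ICAM1 and SELP were at -2.09 ± 0.61 and -2.80 ± 0.43 (SD, n = 4). The angiopoietin receptor TEK and its relative TIE1 were not well above background on every array. VEGFA, the ligand of KDR, was at -3.26 ± 0.80, and HIF1A and EPAS1, the hypoxia-inducible factors, were not kept. CITED2, a regulator that binds their co-activator, was at -0.92 ± 0.55.

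Markers of other tissues were mostly dim, with exceptions, and their kept counts stand beside 44.7% kept of all named genes. Of 13 leukocyte genes, 4 were kept: FCER1G, a signalling chain of Fc receptors, at 0.44 ± 0.13, ITGB2, the integrin of white blood cells, at -1.63 ± 0.57, CD14 of monocytes at -3.13 ± 0.61, and CD3E of T cells at -3.31 ± 0.64. HBB, the haemoglobin beta chain and the 1 kept of 3 red cell genes, read 0.42 on control 1 and -1.03, -1.34 and -0.83 on the others. Of 10 skeletal muscle genes, 1 was kept, the troponin TNNC2, at -1.79 ± 0.59, and of 3 nerve and glia genes 1 was kept, NPY of sympathetic nerves, which read 0.61 on control 1 and -2.42, -1.90 and -1.69 on the others. Without control 1 the SDs went from 0.77 to 0.26 for HBB and from 1.34 to 0.37 for NPY. Of 14 fat genes 6 were kept, near the 44.7% of all named genes. FABP5, PLIN2 and DGAT1 of lipid handling were at 1.00, 0.07 and -0.55. The other kept fat genes were dimmer, with PPARG, FABP4 and PLIN1 at -1.13, -1.71 and -2.61. Of 9 liver genes 4 were kept, also near that share. Of these, TF and TTR, which carry iron and thyroid hormone, were at 0.96 and -0.85. APOA1, the main protein of high-density lipoprotein, read -0.67 on control 4 and 1.08, 1.98 and 1.82 on controls 1, 2 and 3. The part of other cells in these levels was not tested.

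A few genes best known from other organs were brighter than the 75th percentile on every array. LHB, the beta chain of luteinizing hormone, read 3.19, 3.08, 1.94 and 3.50, and its second probe had a mean of -2.64 and an SD of 0.05. CSN2, the milk protein beta casein and the 1 kept of 6 placenta and milk genes, read 1.60, 1.08, 0.02 and 1.39. Of 26 endocrine genes 7 were kept, and growth hormone, prolactin and the alpha chain shared by the pituitary glycoprotein hormones were above background on no array. POMC, ESR1 and CYP17A1, for the precursor of corticotropin, the oestrogen receptor and a steroid-making enzyme, were at -1.27, -1.64 and -2.51. The thyroid and thymus list had 1 gene on the array, TSHR, and it was not kept.

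Few inflammatory mediators were well above background on every array, with 4 of 35 kept, beside 44.7% of all named genes. MIF, a cytokine stored in many cell types, was the exception at 6.88 ± 0.63 (SD, n = 4). The RNA-sensing receptor TLR3 and the cytokine IL18 were at -0.62 ± 0.52 (brightest probe) and -2.50 ± 0.76. IL3, TLR1 and CSF2 were above background on no array. All 8 interferon response genes were kept: IFNAR1, a chain of the type I interferon receptor, was at 2.36 ± 0.34, ISG15, a ubiquitin-like modifier, at 1.23 ± 0.61, MX1, an antiviral GTPase, at 0.75 ± 0.80, and the transcription factor IRF2 at -1.31 ± 0.19.

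All 4 eicosanoid genes were kept, and 1 was bright. PTGDS, which makes prostaglandin D2, read 7.48, 7.72, 7.13 and 7.78. PTGS1, the constitutive cyclooxygenase, was at 1.72 ± 0.35 (SD, n = 4), and PTGS2, the inducible form, read -1.69, -1.55, -1.37 and -1.55.

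Stress, protein turnover and cell cycle genes spread over the whole scale. CRYAB, a small heat shock protein, was at 5.30 ± 0.58 and HSP70.1 at -0.57 ± 0.40. XBP1, a transcription factor of the unfolded protein response, read 0.76 on control 1 and 2.98, 3.59 and 2.92 on the others, with an SD of 1.24 over the 4 arrays and 0.37 without control 1. The chaperone HSPA5 read 2.91 on control 3 and 0.81, 1.36 and 1.73 on controls 1, 2 and 4. Among turnover genes, UBB and the lysosomal protease CTSD were at 8.02 and 4.07. The redox protein TXN and the oxidase subunit CYBA were at 3.42 ± 0.19 and 1.49 ± 0.42. PCNA, MYC and BCL2L1, which act in replication, growth and survival, were at 1.55, 0.10 and -1.82 by their brightest probes. The second PCNA and MYC probes had means of -1.57 and -1.08. The immediate early genes JUND, JUN, EGR1 and ETS2 were at 0.94, 0.77, 0.72 and -1.40, and the second JUN probe had a mean of -1.54. JUND read 1.93 on control 1 and -0.46 on control 3. The brightest EGR1 probe read between 0.34 and 0.97, and the dimmest of its 4 kept probes had a mean of -2.47.

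The median of all kept probes was -0.18, and the 10 named genes nearest it were EEF1E1, BMP4, SLC17A5, PSMD4, FGF7, BMPR1B, OMC, ITGAV, IRF3 and SOD2. They mix growth factor signalling (BMP4, its receptor BMPR1B and FGF7) with the proteasome subunit PSMD4, the lysosomal transporter SLC17A5, the matrix receptor chain ITGAV, the interferon regulator IRF3 and the mitochondrial superoxide dismutase SOD2. EEF1E1, a protein of the tRNA synthetase complex, was the steadiest, with values from -0.38 to 0.06 and an SD of 0.20. BMPR1B was the least even, reading 1.08 on control 4 and -0.43, -0.59 and -0.93 on controls 1, 2 and 3. OMC is the name the array gives. Being in the middle is a matter of small distances: leaving out control 1 kept 2 of the 10 in the group, and leaving out each of the others kept 3 or 4.

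**Figure D3:**
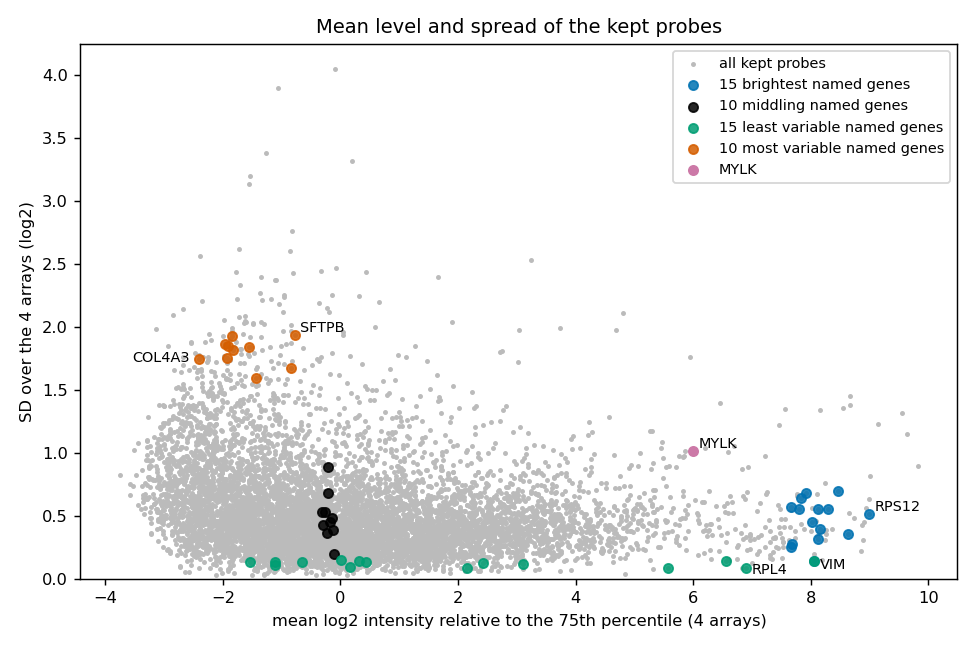
SD over the 4 arrays against the mean level (both log2) for the 7804 kept probes (grey), with the brightest, middling, least variable and most variable named genes and MYLK in colour. The most variable named genes lie at the dim end, and the least variable lie at every level from PTGS2 at -1.54 to VIM at 8.06.

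The median SD of the kept probes was 0.46, with quartiles at 0.30 and 0.68. Spread was widest among dim probes: the median SD was 0.63 in the dimmest 25% and 0.47, 0.39 and 0.40 in the next 3 classes of that size. Among 13 kept probes printed as 5 spots each, the median SD between spots of an array was 0.19 and the median SD over arrays was 0.47, and 12 of the 13 varied more over arrays than between spots.

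The 15 least variable named genes had SDs from 0.08 to 0.15. ATP6V0C, a proton pump subunit of lysosomes, read between 2.04 and 2.22 on the 4 arrays. PPIB, a protein-folding isomerase of the endoplasmic reticulum, read 5.46, 5.54, 5.65 and 5.61, and its other probe was as even, with an SD of 0.07. The ribosomal gene RPL4 had an SD of 0.09 on both of its bright probes and 0.79 on the third, dimmer one. SCD5, a fatty acid desaturase, had an SD of 0.09, and its second probe an SD of 0.49. The rest were MAPKAP1 of a growth-signalling kinase complex, the cell death gene BAD, MDD2 (a name the array gives), PTGS2, FCER1G, the RNA demethylase FTO, the calcium-binding CIB1, PYGM, VIM, the ribosomal RPL35A and the ubiquitin-activating enzyme UBA1. FCER1G had an SD of 0.13 on each of its 2 probes.

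Which genes were least variable depended on the array set and the scaling. Without control 1, 3 of the 15 stayed among the 15 least variable, and with each array scaled to its median 0 of the 15 did, while the median SD of kept probes became 0.81. Over 8 alternatives (3 scalings, another background correction and each array left out), 1 of the 375 kept genes, FCER1G, stayed in the lowest 25% of SDs throughout, with SDs from 0.08 to 0.56. At the other end, 8 genes stayed in the highest 25% throughout: AGTR1, CAV1, SFTPB, FGFR1, BCL2, SERPINC1, MCP-3 and COL4A3. These groups were looked for after the values were seen. CAV1, the scaffold of caveolae in smooth muscle and endothelium, read 0.29 on control 1 and 2.50, 2.81 and 1.49 on the others. BCL2, an inhibitor of cell death, read 1.15 on control 1 and -0.95, -1.51 and -2.24 on the others, and its second probe was likewise highest on control 1, at 0.75. Without control 1 the SDs went from 1.14 to 0.69 for CAV1 and from 1.46 to 0.65 for BCL2, and for AGTR1 from 1.02 to 0.64.

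**Figure D4:**
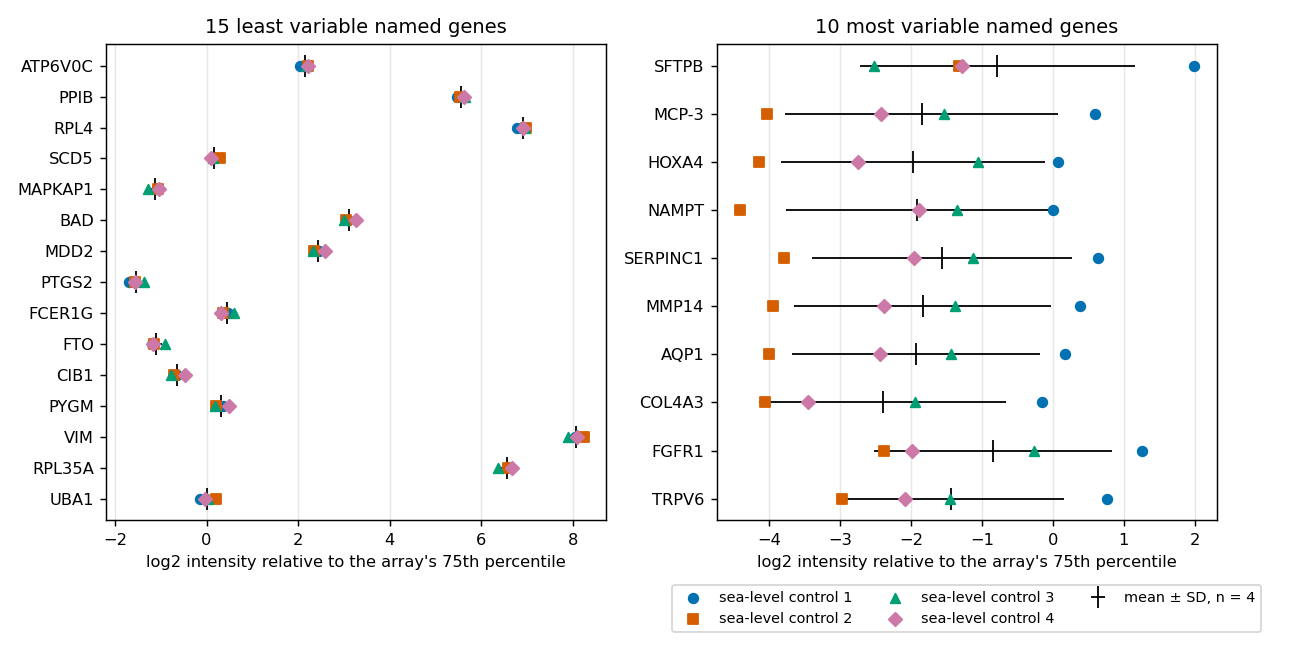
Level on each array (coloured points; log2 relative to the 75th percentile; black tick and bar, mean and SD, n = 4) of the 15 least variable named genes, left, and the 10 most variable, right. The 10 most variable are all highest on control 1, and 9 of them are lowest on control 2.

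The 10 most variable named genes shared a pattern over the arrays. All 10 were highest on control 1 and 9 were lowest on control 2. Over all kept probes, control 1 was highest for 30.9% and control 2 lowest for 18.2%. SERPINC1, the clotting inhibitor antithrombin, read 0.63 on control 1, -3.79 on control 2, -1.12 on control 3 and -1.96 on control 4. The same order held for MMP14, a membrane metalloproteinase, at 0.38, -3.94, -1.38 and -2.39, and for AQP1, a water channel of small vessels, at 0.17, -4.00, -1.43 and -2.44. HOXA4, a positional homeobox gene, the mast cell proteinase MCP-3, the NAD-making enzyme NAMPT, the basement membrane chain COL4A3, the receptor FGFR1 and the calcium channel TRPV6 shared it too. The second FGFR1 probe did not: it read -2.04, -1.60, -0.79 and -3.42 on controls 1 to 4. For AQP1, MCP-3, MMP14, NAMPT, TRPV6 and SFTPB the values rest on 1 kept probe each, and their other probes on the array were not kept. SERPINC1 and COL4A3 had 1 probe each on the array. SFTPB, a surfactant protein of the lung, differed in being lowest on control 3: it read 1.99 on control 1 and -1.32, -2.52 and -1.28 on the others. On the scale of processed intensity, SERPINC1 was at 193, 43.1, 627 and 102 on controls 1 to 4, so control 3 was the brightest array before scaling. Without control 1 the SD went from 1.94 to 0.71 for SFTPB and from 1.84 to 1.37 for SERPINC1, and 3 of the 10 stayed among the 10 most variable.

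The pattern was common among uneven genes. Of the 375 kept genes 57 had an SD over 1, and 40 of them were highest on control 1, 30 of which were also lowest on control 2. Over all probes, 792 (10.1%) had an SD over 1 and 71.7% of these were highest on control 1, although control 1 was highest for 30.9% of all kept probes. Without control 1, 30 of the same 375 genes and 470 of the probes (6.02%) had an SD over 1, and control 3 was highest for 22 of the 30 genes and 65.1% of those probes. The tilt followed brightness. In the dimmest 25% of probes the median deviation from the probe's own mean was 0.54 on control 1, 0.22 on control 3, -0.27 on control 2 and -0.38 on control 4. In the brightest 25% it was -0.24 on control 1, -0.18 on control 3, 0.13 on control 2 and 0.31 on control 4, so controls 1 and 3 ran opposite to controls 2 and 4 at both ends. The part of this tilt in the spread of single genes was not tested.

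**Figure D5:**
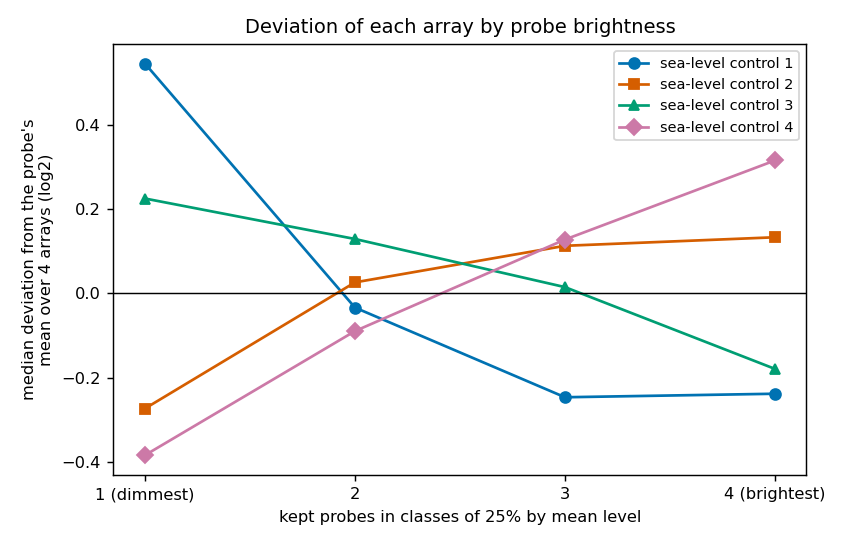
Median deviation of each array from the probe's mean over the 4 arrays (log2), for the kept probes split by mean level into classes of 25%, dimmest to brightest. Control 1 goes from 0.54 in the dimmest class to -0.24 in the brightest, and control 4 from -0.38 to 0.31.

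Among named genes just outside the filter, control 2 was most often the array that missed them. Over all probes, the share well above background was smallest on control 4, at 59.5%, with 61.6% on control 2. Of the 116 named genes well above background on 3 arrays, control 2 was the array that missed 75, control 4 missed 25, control 1 missed 16 and control 3 missed none. FSHB, the beta chain of follicle-stimulating hormone, read 1.06 on control 1, -5.30 on control 2, -0.79 on control 3 and -1.56 on control 4. Just inside the filter, CCR3, a chemokine receptor and the dimmest kept gene, was at -3.37 ± 0.74 (SD, n = 4).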

How the data were processed

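Per the file headers, the authors scanned one-colour Cy3 arrays and extracted them with Agilent Feature Extraction 9.5.3.1. Each deposited scanner file holds intensity values for 15744 spots, of which 15208 are not controls; the parameters in the headers show spatial and multiplicative detrending switched on for the processed intensity, with surrogate values for dim spots. The deposited series table holds a ratio, which the values show to be processed intensity over the array's 75th percentile (r with the scanner values of 0.998 or more on the log2 scale); its column medians are 0.328, 0.132, 0.228 and 0.137, and its scale was judged from the values alone. It served as an alternative.

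From the scanner files, outlier-flagged spots were left out (5 to 53 per array), spots of a probe were averaged, and probes well above background on all 4 arrays were kept. The arrays' number limits the precision. Of 15008 probes, 1488 were named, through the file's names, descriptions or accessions matched to RefSeq's sheep gene table (assembly ARS-UI_Ramb_v3.0, names only). Named genes were the 15 brightest, 10 nearest the median, 15 least and 10 most variable, the 3 contractile markers, and in each of 31 lists the 3 brightest and the least variable. The members, lists and rule were chosen with earlier results of these data known. There is 1 group, so no test between groups was made. Alternatives were other scalings (median, quantile, 75th percentile of detected probes), normexp background correction (limma 3.58.1, R 4.3.3; offset 50), other detection filters, and each array left out. Python 3.11.15, pandas 2.3.3 and numpy 2.4.6 were used. Some genes that this rule names are not reported here.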

Additional observations from a re-analysis of the deposited data

Results flagged for a closer look

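Of 121 named genes, 7 had 1 array far from the other 3 (a gap that nearly filled the gene's whole range); chance flags about 1 in 20 groups. On control 1, BGN was low at 4.33, IRF3 at -0.94, ITGAV at -1.05 and SLC17A5 at -0.86. On control 3, FTO was high at -0.91 and PSMD4 at 0.49. On control 4, MYLK was high at 7.51. The second ITGAV probe ran the other way, with its highest value, 0.16, on control 1, and the second IRF3 probe was again lowest on control 1, at -0.94. The second SLC17A5 probe was lowest there at -0.81, against -0.57 to -0.45 on the others. The second FTO and PSMD4 probes were again highest on control 3, at -1.23 and 0.25; BGN had 1 kept probe. The second MYLK probe set control 4 apart in the same way, at 6.55 against 4.31 to 4.83 on the other arrays.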

How the results depend on the processing

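The brightest genes held and the ranking by spread did not. Of the 15 brightest, all 15 were shared under every scaling, background, filter and left-out-array setting, and 13 with each gene at the median of its probes. With each array scaled to its median, the median SD was 0.81, and 0 of the 15 least variable and 1 of the 10 most variable genes were shared. Quantile normalization shared 2 least variable and 4 most variable genes, and the 75th percentile of detected probes 4 least variable. With normexp the median SD was 0.38, with 6 middling, 3 least variable and 1 most variable gene shared. Asking for 3 arrays shared 0 middling and 0 most variable genes, since dimmer genes enter; with no filter these were 0 and 0, 838 named genes were counted and the median SD was 0.80. With each gene at the median of its probes, 6 middling genes were shared. Leaving out each array in turn gave a median SD from 0.36 (without control 1) to 0.53 (without control 2), and shared 2 to 4 middling, 3 to 10 least variable and 2 to 10 most variable genes; without control 2, 2 of the 10 most variable were shared. It left 7805 to 8366 kept probes and 375 to 451 kept named genes. As an alternative chosen after seeing the data, the 57 kept genes with an SD over 1 became 30 without control 1. Kept outlier spots and the deposited table changed no list. The mean pairwise correlation of 0.92 ran from 0.89 to 0.93. The cause was not tested where no construction shows it. No paired analysis was possible because only 1 group was described and no test was made.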
